A study of Rattus norvegicus with 4 samples.

Results

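The genes of the platelet-derived growth factor (PDGF) system were followed in rat OLN93 cells with and without Sox10. They were chosen by gene symbol, as the ligand genes Pdgfa, Pdgfb, Pdgfc and Pdgfd, the receptor genes Pdgfra and Pdgfrb, and the receptor-like gene Pdgfrl. These are 7 of the 17327 gene symbols in the count tables, 3 of them receptors or receptor-like and 4 of them ligands. OLN93 is a spontaneously immortalized rat oligodendroglial cell line, and the cells were grown in medium with fetal calf serum. The control group held 2 libraries from Sox10-positive cells, named in the labels as biological replicates and in the study's methods as control clones. The Sox10-deficient group held 2 libraries, from clones A and B, in which Sox10 had been inactivated by CRISPR/Cas9 with a different guide RNA each. Each Sox10-deficient line is a single clone, so an effect of Sox10 loss and a feature of that clone cannot be told apart within a line. The comparison asks which of these genes change their transcript level when Sox10, a transcription factor of the oligodendrocyte lineage, is missing.

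PDGF ligands are secreted dimers that bind and pair receptor tyrosine kinases at the cell surface. Paired receptors phosphorylate each other and recruit adaptors, lipid kinases and phospholipase C, which feed the Ras-ERK and Akt pathways. PDGF-AA, the dimer of the Pdgfa product, acts through the receptor encoded by Pdgfra, and this pair drives division, survival and migration of oligodendrocyte precursor cells (OPCs). Pdgfra is a standard marker of OPCs and is switched off as they differentiate, whereas Pdgfrb is best known from pericytes and vascular smooth muscle.

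Of the 7 genes, 5 had counts, only 2 (Pdgfra and Pdgfa) had enough for the test, and 0 were called lower or higher in the Sox10-deficient clones. A call meant a change of at least 2-fold at an adjusted p up to 0.05. Of all tested genes, 2.5% were called lower and 1.11% higher. Pdgfra, the OPC receptor, and Pdgfa, its ligand, had the most counts of the 7, and in both genes the values of clones and controls overlapped. Pdgfrl was lower in both clones than in either control, as were 21.4% of all tested genes, and it had only 2 to 7 counts per library. Pdgfb and Pdgfd had no count in any library.

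The promoters of Pdgfra and Pdgfa are shown because these are the members with enough counts for a test and because Sox10 binds short Sox motifs in DNA. The RefSeq promoter table (build GRCr8) held 5 of the 7 genes, without Pdgfrb and Pdgfrl. The sequences are the 250 bases before the annotated start, read 5′ to 3′ on the strand of the gene, and capitals mark matches to the Sox hexamers ACAAAG or ACAATG, with a leading A, and TCAAAG or TCAATG, with a leading T, on either strand. The Pdgfra window is chr14:33408517-33408766 on the minus strand, and the Pdgfa window is chr12:20759116-20759365 on the plus strand.
Pdgfra: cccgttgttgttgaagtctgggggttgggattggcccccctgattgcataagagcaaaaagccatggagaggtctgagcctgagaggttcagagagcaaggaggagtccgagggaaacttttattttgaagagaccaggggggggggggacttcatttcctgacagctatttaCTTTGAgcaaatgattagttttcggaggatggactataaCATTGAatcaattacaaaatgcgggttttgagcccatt
Pdgfa: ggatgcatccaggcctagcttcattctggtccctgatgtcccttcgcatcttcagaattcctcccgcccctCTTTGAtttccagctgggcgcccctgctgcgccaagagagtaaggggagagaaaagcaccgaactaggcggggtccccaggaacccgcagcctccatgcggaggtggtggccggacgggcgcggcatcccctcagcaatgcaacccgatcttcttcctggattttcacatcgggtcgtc
In the Pdgfra window, TCAAAG stood on the opposite strand 77 bases before the start and TCAATG, likewise on the opposite strand, 38 bases before it. In the Pdgfa window, TCAAAG stood on the opposite strand 179 bases before the start. The Pdgfc window held 1 match, TCAAAG at 210 bases, and the windows of Pdgfb and Pdgfd held none. Any of the 4 hexamers was found in 13371 of 33469 rat promoters of this length, or 39.95%, so a match is common. TCAAAG was in 13.9% of them and TCAATG in 8.29%. CTGGCAC and CTGGTAC, searched on either strand as motifs of the oligodendrocyte regulator Myrf, were in none of the 5 windows and in 5.48% of all promoters. These matches describe the sequence only, and binding was not measured here.

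The deposited counts were shallow, at 60951 and 104017 per control library and 86817 and 89128 for clones A and B. The study reports far more reads per library, so depth here means that of the deposited counts. In these, 1 count was worth 9.69 to 16.0 CPM, the unit of counts scaled to the size of each library. A count of 0 allows up to 3 counts (a one-sided 95% limit), which is 29.1 to 48.0 CPM depending on the library. Such limits, and the intervals on counts below, cover counting error only. Counts of Sox10 itself were 28 (control 1), 64 (control 2), 0 (A) and 14 (B). It fell from 534 CPM ± 122 to 79.3 CPM ± 112 (SD, n = 2 each), a log2 change of -2.74 with a standard error (SE) of 0.63 and a Benjamini-Hochberg adjusted p of 0.0172 in edgeR's quasi-likelihood test. The adjusted p ranged from 4.29e-09 to 1.00 over the 10 alternatives that could be fitted, and the call was lost with DESeq2, with the replicate block, without control 2 and without clone A. The log2 change ranged from -8.51, without clone B, to -1.75. The oligodendroglial label was checked with markers. Of 11 OPC markers, 9 had counts, and the list summed to 2126 and 1832 CPM for controls and to 1278 and 1291 CPM for clones. Sox10, the inactivated gene, was part of these sums at 448 and 620 CPM for controls, 0 for A and 159 for B. Of the 11 markers 5 were tested and Sox10 was the 1 called, at a median log2 change of -0.48, or -0.75 with no filter. Cspg4 alone of the tested markers went the other way, with a log2 change of 0.93. Ptprz1 and Nkx2-2 had at least 16 counts in every library. Olig1 was counted 12 times in control 1, once in control 2 and never in the clones, and Olig2 had counts in control 1 alone. Gpr17 had 4 counts in all and Sox5 had 1. Of 9 markers of myelinating oligodendrocytes 6 had counts, with Mag, Mobp and Opalin at 0. Mog, among the 6, had 54 deposited counts in all and likewise an authors' mean of 0. Why the deposited counts and the authors' means of Olig2 and Mog disagree was not tested. Of all 2438 genes with enough counts to be tested, 61 (2.5%) were lower and 27 (1.11%) were higher in the clones by the rule above, and without control 2 no gene was called by that rule. With an unadjusted p up to 0.05 in its place, 170 (6.97%) were lower and 113 (4.63%) higher. In this bulk RNA, fewer cells with a transcript and less of it per cell cannot be told apart.

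Pdgfra (ENSRNOG00000002244) was counted 23 times in control 1, 38 times in control 2, 31 times in clone A and 44 times in clone B. Scaled to CPM, both controls stood at 368, clone A at 360 and clone B at 498. Clone A lay just under both controls and clone B above them, so the groups overlapped. The mean was 368 CPM ± 0.489 in controls and 429 CPM ± 97.7 in clones (SD, n = 2 each). The SD of the controls understates their error, since the exact Poisson interval of control 1 alone ran from 233 to 552 CPM. The log2 fold change was 0.22 (SE 0.34, 95% interval -0.49 to 0.93, adjusted p = 0.860 in edgeR's quasi-likelihood test). The interval lay within a 2-fold change in either direction, but it does not show that the levels were equal. The sign rested on clone B: without that library the log2 change was -0.04 (adjusted p = 0.985), and without clone A it was 0.45 (adjusted p = 0.904).

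Pdgfrb (ENSRNOG00000018461), the receptor for PDGF-B chains, was counted 2 and 7 times in control cells, 3 times in clone A and never in clone B. These were 32.0, 67.9, 34.8 and 0 CPM, and clone A lay between the controls. All 12 counts together gave a ratio of clones to controls of 0.317, with an exact conditional binomial interval from 0.0552 to 1.27. Its log2 value of -1.66 became -0.64 without clone B and -0.89 without control 2. The gene did not pass the filter on low counts and was not part of the main test. Fitted with no filter, its log2 change was -1.50 (SE 1.33, adjusted p = 0.895 in edgeR's quasi-likelihood test).

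Pdgfrl (ENSRNOG00000010832), which encodes a secreted protein resembling the outer part of a PDGF receptor, was counted 7 times in each control, with 2 counts for clone A and 3 for clone B. Scaled, controls stood at 112 and 67.9 CPM and clones at 23.2 and 34.0 CPM. It was the only member whose groups did not overlap, with the clones lower, while 21.4% of all tested genes did not overlap in that direction and 21.6% did not overlap with the clones higher. Both clones were at or under 3 counts. The ratio of the summed counts, 5 in clones to 14 in controls, was 0.339 with an interval from 0.0957 to 0.997 that covers counting error only. With no filter the log2 change was -1.53 (SE 0.99, unadjusted p = 0.112 and adjusted p = 0.866 in edgeR's quasi-likelihood test), so no change was called at these low counts.

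Pdgfa (ENSRNOG00000001312), the ligand that acts through Pdgfra, was counted 27 and 45 times in control cells, 34 times in clone A and 41 times in clone B. Scaled to CPM, the controls stood at 432 and 436, clone A at 395 and clone B at 464. As with Pdgfra, clone A was the lowest library and clone B the highest. The means were 434 CPM ± 3.26 in controls and 430 CPM ± 49.1 in clones (SD, n = 2 each). The log2 fold change was -0.02 (SE 0.32, 95% interval -0.69 to 0.65, adjusted p = 0.996 in edgeR's quasi-likelihood test). Its sign turned without clone A, where the log2 change was 0.11.

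**Figure D1:**
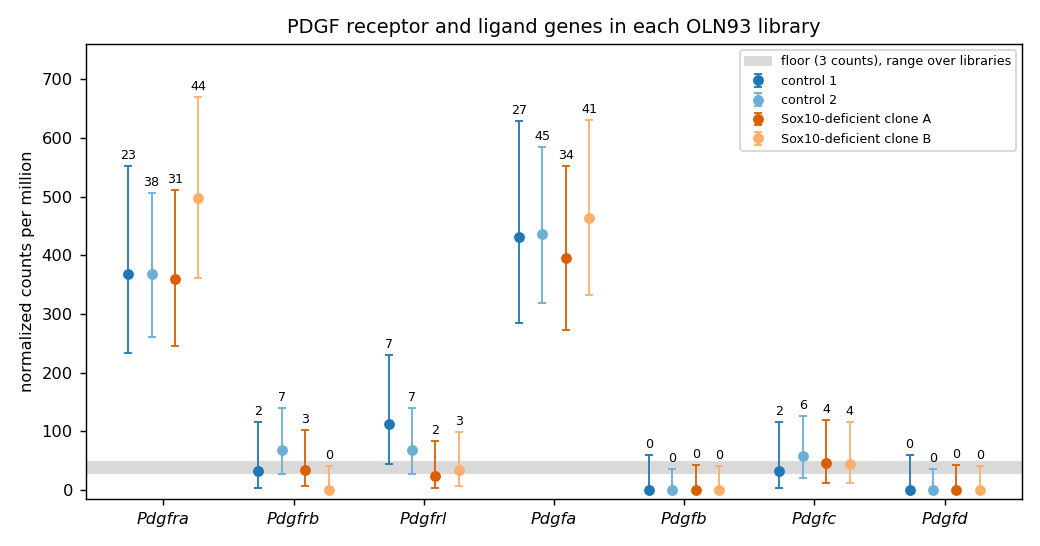
Scaled counts (CPM) of each PDGF gene (vertical axis) in the 2 control libraries and the 2 Sox10-deficient clones, with exact two-sided Poisson 95% intervals as bars (reaching 35.8 to 59.0 CPM for a count of 0, above the one-sided limit), the raw count above each bar and the level of 3 counts as a grey band. Pdgfra and Pdgfa lie between 360 and 498 CPM in every library, and the other genes lie near or under the grey band except in some control libraries.

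Pdgfc (ENSRNOG00000010695), which encodes a ligand secreted in latent form and also able to bind the Pdgfra product, was counted 2 and 6 times in control cells and 4 times in each clone. These were 32.0, 58.2, 46.5 and 45.3 CPM, with both clones between the controls. The ratio of the summed counts, 8 to 8, was 0.95 with an interval from 0.311 to 2.90. Its log2 value of -0.07 turned to 0.52 without control 2. A change within that interval was not detectable at this depth.

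Pdgfb (ENSRNOG00000017197), whose product binds both receptors, and Pdgfd (ENSRNOG00000029148), whose product binds mainly the receptor encoded by Pdgfrb, had 0 counts in all 4 libraries. Each library allows up to 3 counts for them, or 48.0 CPM in control 1 and 29.1 CPM in control 2. No fold is given for either.

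Counted over the family, 2 of 7 genes could be tested, 3 had counts too low for the test and 2 had none. Of the 2 tested, 0 were called lower or higher by either rule in edgeR, and 0 had an unadjusted p under 0.05. DESeq2 also called 0. With no filter, 5 of the 7 could be fitted and again 0 were called. Set against 2.5% and 1.11% of all tested genes by the adjusted rule, and 6.97% and 4.63% by the unadjusted rule, 0 of 2 is no result about these genes.

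**Figure D2:**
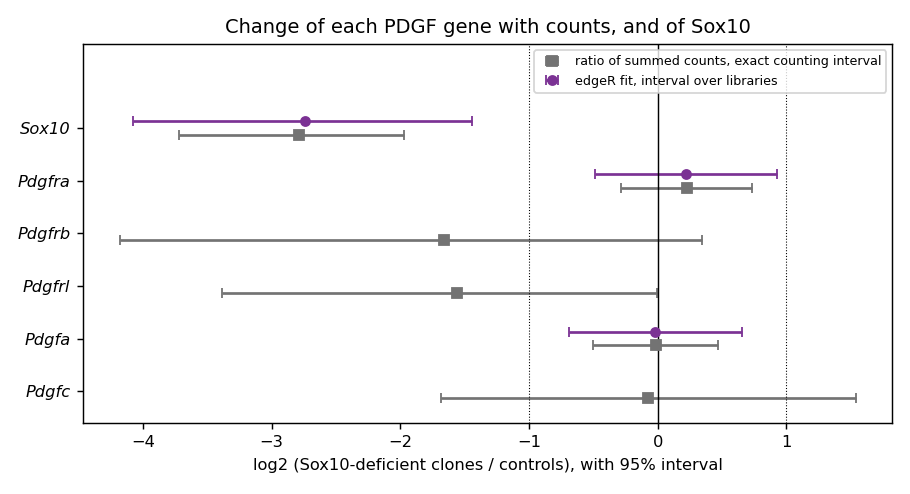
Log2 ratio of Sox10-deficient clones to controls (horizontal axis) for Sox10 and the 5 PDGF genes with counts. Squares are ratios of summed counts with exact counting intervals and circles are edgeR fits with intervals over libraries, drawn for genes that passed the filter. Dotted lines mark a 2-fold change. The intervals of Pdgfra and Pdgfa lie between the dotted lines, and those of Pdgfrb, Pdgfrl and Pdgfc extend past at least one of them.

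The tested genes whose pattern over the 4 libraries was most like that of Pdgfra were Tmem88, Macf1 and Tas1r3. Likeness was the Euclidean distance between log2 levels centred on their mean over the 4 libraries, taken over 2436 genes. Counts of Tmem88 were 49 and 81 in control cells, 66 in A and 97 in B, at a distance of 0.0524. For Pdgfa the nearest were Crim1, Ylpm1 and Tufm, and counts of Crim1 were 13 and 22 in control cells and 17 and 21 in A and B, at a distance of 0.0594. Flat genes with few counts are near each other by this measure, and 4 libraries cannot tell a shared pattern from that.

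The partners of the PDGF system were read from 6 lists of co-receptors, proteases that process ligands, adaptors, the Ras-ERK and Akt arm, receptor attenuators and immediate early response genes. They held 96 genes, of which 29 could be tested, and 2 of these were lower and 1 was higher by the adjusted rule, against 2.5% and 1.11% of all tested genes. By the unadjusted rule 3 were lower and 2 higher, against 6.97% and 4.63%. Of the 5 genes called by either rule, 3 (Nrp1, Rasa1 and Mtor) passed the filter on low counts through a single group, so these counts are a description and support nothing about the lists. The median log2 change of the 29 was 0.14, against -0.0059 for all tested genes.

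Of the co-receptors and binding partners of PDGF or its receptors, 7 of 12 were tested, and the median was 0.41, or 0.01 with no filter. By either rule 2 were lower, against 2.5% of all tested genes by the adjusted rule and 6.97% by the unadjusted rule. Higher were 0, against 1.11% and 4.63%. Thbs1, which encodes the matrix protein thrombospondin 1, went from 64 and 88 counts in control cells to 14 in A and 24 in B. It fell by 2.10 on the log2 scale (SE 0.33, adjusted p = 0.00107 in edgeR's quasi-likelihood test). Its groups did not overlap, with the clones lower, which held for 21.4% of all tested genes. The call was lost in 1 of 11 alternatives, without control 2, and the adjusted p ranged from 7.56e-06 to 0.386. Nrp1, encoding the co-receptor neuropilin 1, went from 7 and 17 counts in control cells to 0 in A and in B (adjusted p = 0.0272 in edgeR). Its control mean of 138 CPM ± 37.4 (SD, n = 2) makes it at least 4.02-fold lower in the clones, set against the level of 3 counts in each clone library. It passed the filter on low counts through the controls alone, where it is high, so it could enter the test only as a gene that differs. The Nrp1 call held in 4 of the 9 alternatives that could be fitted, with adjusted p from 0.00156 to 0.212. It was lost with DESeq2, with the replicate block and without control 1, clone A or clone B. Cspg4, which encodes the OPC proteoglycan NG2 that can bind PDGF-AA, was not called and is named after its values were seen. Its counts were 16 and 31 in control cells, 58 in A and 36 in B, a log2 change of 0.93 (SE 0.36, adjusted p = 0.196 in edgeR). The 2 clones were above both controls, against 21.6% of tested genes that did not overlap with the clones higher.

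None of the 9 genes for proteases that mature PDGF ligands and for their inhibitors had enough counts for the test. Furin, a proprotein convertase, was counted 0 and 5 times in control cells, 4 times in A and 8 times in B. Pcsk6, of the same family, was counted 3 and 8 times in control cells, never in A and 2 times in B.

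Among the adaptors and effectors that bind activated receptors, 5 of 24 were tested, with 0 lower and 1 higher by the adjusted rule (1.11% of all tested genes) and 2 higher by the unadjusted rule (4.63%), and the median was 0.14. Rasa1, a GTPase-activating protein that switches Ras off, went from 5 and 9 counts in control cells to 28 in A and 29 in B. It rose by 1.93 on the log2 scale (SE 0.47, adjusted p = 0.0240 in edgeR's quasi-likelihood test). It passed the filter through the clones alone, where it is high, so its call is no support for a rise of the list. The adjusted p over 10 alternatives that could be fitted ranged from 0.0172 to 0.497, and the call held in 5 of them. It was lost with DESeq2, with the replicate block, and without control 2, clone A or clone B. Shc1, an adaptor that links receptors to Ras, had 9 counts in each control, 24 in A and 38 in B, a log2 change of 1.66 (SE 0.47, adjusted p = 0.0549 in edgeR) that was called only by the unadjusted rule. Its adjusted p under the alternatives ranged from 0.0199 to 0.539.

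In the Ras-ERK and Akt arm, 7 of 17 genes were tested, 0 were called by the adjusted rule and 1 was lower by the unadjusted rule (6.97% of all tested genes), and the median was -0.24, or -0.01 with no filter. Mtor, the kinase downstream of Akt, had 14 counts in each control, 6 in A and 3 in B, a log2 change of -1.74 (SE 0.71, adjusted p = 0.224 in edgeR), and it passed the filter through the controls alone. Of the attenuators of the receptors, phosphatases, ligases and Sprouty proteins among them, 6 of 18 were tested and 0 were called by either rule, at a median of -0.02. The 2 with the most counts were Ptpn12 and Ptpn11, both genes for tyrosine phosphatases, with log2 changes of 0.76 (SE 0.45) and -0.50 (SE 0.49). With no filter, 14 attenuators were fitted and 0 were called by the adjusted rule. By the unadjusted rule 2 were then lower and 1 higher, against 329 and 295 of all 10024 genes with a count. Of the immediate early genes, which respond within minutes to growth factors, and Ccnd1, the cyclin of early cell cycle entry, 4 of 16 were tested and 0 called, at a median of 0.19, or 0.04 with no filter. Ccnd1 had a log2 change of 0.38 (SE 0.25) and Jun, a growth factor-induced transcription factor, one of -0.22 (SE 0.29).

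**Figure D3:**
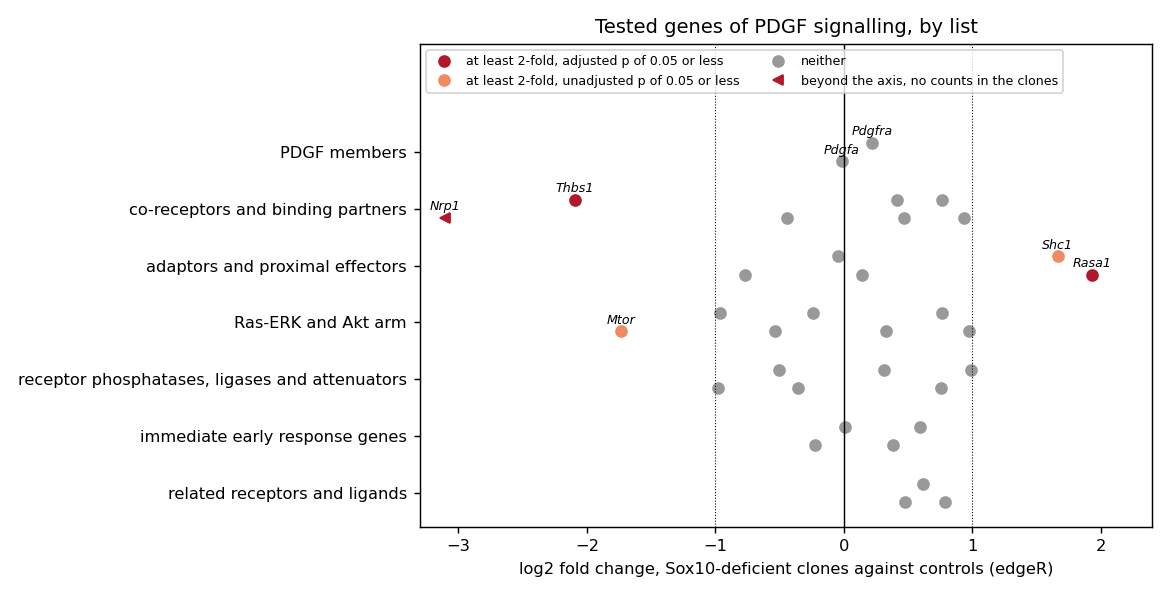
Log2 fold change of each tested gene (horizontal axis) by list of PDGF signalling genes and of related receptors and ligands, from edgeR. Red points are called by the adjusted rule, orange points by the unadjusted rule alone and grey points by neither, and the triangle is Nrp1, which had no counts in the clones. Pdgfra and Pdgfa are grey and lie near 0, and the named coloured points are Nrp1, Thbs1, Mtor, Shc1 and Rasa1.

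In the list of related receptor tyrosine kinases and ligands, 3 of 15 genes were tested and 0 were called, with a median of 0.61. Csf1, the ligand of the macrophage receptor, had a log2 change of 0.47 (SE 0.36), and Kitlg, the ligand of Kit, one of 0.79 (SE 0.48). Kit, the nearest gene on one side of Pdgfra, had 0 counts in all 4 libraries.

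Pdgfrb is a marker of pericytes and related cells, and Pdgfra of fibroblasts as well as OPCs, so markers of other cell types were read beside them. Of 14 markers of pericytes, smooth muscle and fibroblasts, 6 had counts, 2 were tested and 0 were called. Rgs5, Abcc9, Kcnj8, Anpep, Des, Col1a2, Dcn and Lum were at 0, and the list summed to 480 and 601 CPM for controls and to 488 and 351 CPM for clones. Col1a1 had a log2 change of -0.65 (SE 0.42) and Tagln of 0.03 (SE 0.56). The microglial list of 5 markers summed to 63.9 and 136 CPM for controls and to 58.1 and 45.3 CPM for clones, nearly all of it Csf1r, with Ptprc, Itgam and Cx3cr1 at 0. The astrocyte list of 7 markers summed to 432 and 213 CPM for controls and to 34.8 and 56.6 CPM for clones, and 1 of its genes was tested. This was S100b, a calcium-binding protein also made by oligodendrocyte lineage cells, with 26 and 22 counts in control cells, 2 in A and 1 in B, a log2 change of -4.04 (SE 0.75, adjusted p = 0.00304 in edgeR), and the call was lost without control 1 or without control 2. S100b too passed the filter through the controls alone. It made up 416 and 213 CPM of the astrocyte list sums for controls, and 23.2 and 11.3 CPM for A and B. The lower sums of the clones are thus a fall of this 1 gene. Gja1 went the other way, with no count in control cells, 1 in A and 4 in B. Gfap had 1 count, and Aqp4, Slc1a2, Slc1a3 and Aldh1l1 had none. Of the 9 markers of myelinating oligodendrocytes 3 were tested, Cnp, Mog and Myrf, and Myrf passed the filter through the controls alone. By the adjusted rule 1 was lower and 0 were higher, against 2.5% and 1.11% of all tested genes. Among the oligodendrocyte genes, Cnp fell by 1.36 on the log2 scale (SE 0.34, adjusted p = 0.0331 in edgeR), from 62 and 68 counts in control cells to 35 in A and 20 in B, and the call held in 6 of 11 alternatives, with adjusted p from 0.0148 to 0.497. It was lost with DESeq2, with at least 10 counts in every library, and without control 1, control 2 or clone B.

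The study's table of Ensembl genes also gives a mean normalized read count over the libraries, without values per library. It lists the authors' mean as 8439 for Pdgfra, 2485 for Pdgfa, 1506 for Pdgfc, 1395 for Pdgfrb, 260 for Pdgfrl, 16 for Pdgfb and 0 for Pdgfd. The deposited per-library counts were far smaller, since the authors' means sum to 19320879. For the 5353 genes with an authors' mean of at least 500, the mean deposited count was 0.384% of it at the median, and between 0.129% and 1.19% at the 5th and 95th percentiles. Pdgfra, at 0.403%, Pdgfrb, at 0.215%, and Pdgfc, at 0.266%, were within that range, and so was Sox10 at 0.400%. Pdgfa, at 1.48%, and Pdgfrl, at 1.83%, had 3.85 and 4.76 times the median share. Pdgfrl, with an authors' mean of 260, lay outside the set of genes that gave the median. The deposited counts of these 2 genes and the authors' means thus do not scale alike. Why was not tested.

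**Figure D4:**
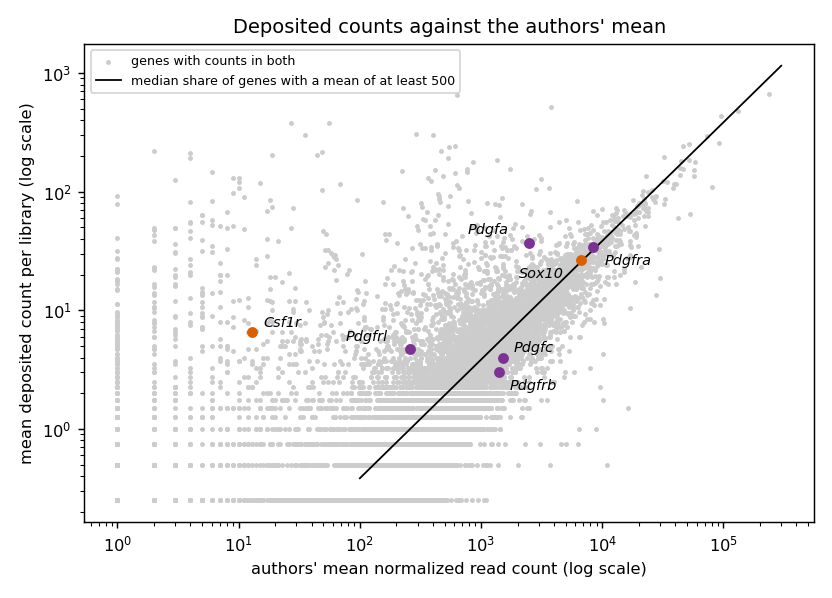
Mean deposited count per library (vertical axis, log scale) against the authors' mean normalized read count (horizontal axis, log scale) for all genes with both, with the line of the median share. Pdgfra and Sox10 lie on the line, Pdgfrb and Pdgfc under it, and Pdgfa, Pdgfrl and Csf1r above it, with Csf1r the farthest off.

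Csf1r, the receptor of colony stimulating factor 1, lies next to Pdgfrb in the RefSeq annotation at a gap of 24.9 kb in GRCr8. It was counted 4 and 13 times in control cells, 5 times in A and 4 times in B, 26 in all against 12 for Pdgfrb, although its authors' mean was 13 against 1395 for Pdgfrb. Its deposited count was 50% of the authors' mean, 130 times the median share. That median is of genes with an authors' mean of at least 500, a set that leaves Csf1r out. Whether reads of one gene were counted under the symbol of its neighbour was not tested. The counts of both symbols added were 6 and 20 in control cells, 8 in A and 4 in B, or 95.9 and 194 CPM against 92.9 and 45.3 CPM. The ratio of the sums was 0.439 with an interval from 0.202 to 0.900, which covers counting error only, and the addition was chosen after seeing the data. The clones were the lower, but clone A and control 1 lay apart by less than the worth of 1 count.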

How the data were processed

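RNA-seq was done on polyadenylated RNA from 2 control libraries and Sox10-deficient OLN93 clones A and B. Per the study's methods and the submitters' processing notes, the authors mapped reads to rat genome rn5 with STAR 2.5.1 and counted unique mappings with HTSeq on Ensembl gene identifiers, from libraries of a stranded mRNA kit. The deposited raw counts are whole numbers per gene symbol in each library, with no normalization. The strand setting of the counting and the annotation behind the symbols of the deposited tables are not given in the sources used here. A deposited series table holds the authors' mean normalized read count per Ensembl gene, a rounded score. Its other columns hold the authors' own comparison (fold changes, errors and p-values) and were not used, and 0 further per-sample columns were left out.

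The counts of all genes were filtered with filterByExpr, scaled with TMM and tested with edgeR 4.0.16 (glmQLFit, glmQLFTest, condition only) in R 4.3.3, with Benjamini-Hochberg adjustment over 2438 genes. A call needed at least a 2-fold change with a p of 0.05 or less, adjusted or, as a second rule, unadjusted. Members under the filter are given as counts, CPM (from all counts, TMM-scaled) and ratios of summed counts with exact 95% conditional binomial intervals (scipy 1.17.1, Python 3.11.15). An exact permutation test of 2 against 2 cannot go under 0.333 (two-sided). P-values measure only the spread between these samples, which may be technical. DESeq2 1.42.0, other scalings, filters and prior counts, a replicate block and leaving out each library were the alternatives. Named from each list were the genes called by either rule, at most 6 by unadjusted p, otherwise the 2 with the most counts, and for each tested member its 3 nearest genes. The members and lists were chosen with earlier results of these data known. Replicate libraries differed beyond counting noise (chi-square per gene 2.18 in controls and 2.20 in clones), so the 2 libraries of a group were not copies of each other. Whether they were technical duplicates cannot be read from this, since separate preparations of 1 RNA can differ too. RefSeq gene and promoter tables of GRCr8 gave neighbours and sequences only. No transcript lengths were at hand, so counts and CPM set side by side or summed over different genes are not corrected for length.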

Additional observations from a re-analysis of the deposited data

How the results depend on the processing

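The depth of the deposited counts limited what could be tested. A count of 0 allows up to 29.1 to 48.0 CPM, and 5 of 7 members were too low for the main test. Pdgfra and Pdgfa were fitted in each of the 11 alternatives and Pdgfrb, Pdgfrl and Pdgfc with no filter (Pdgfrl also without clone A), and no member that was fitted was called by either rule. Pdgfb and Pdgfd could not be fitted. The log2 change of Pdgfra was 0.20 to 0.24 under other scalings, filters, prior counts, DESeq2 and the replicate block, and -0.04 to 0.45 when each library was left out, reversing to -0.036 without clone B. That of Pdgfa was -0.02 and reversed to 0.01 (0.0076) with no filter and to 0.11 without clone A, with a range of -0.14 to 0.11 over the libraries left out. The ratios of summed counts of Pdgfrb, Pdgfrl and Pdgfc stayed within their main intervals under each alternative that could be computed, with log2 ratios of -1.98 to -0.64, -1.96 to -1.24 and -0.34 to 0.52 when a library was left out. Without clone A, Pdgfrb had no counts in the clones and no value. The smaller prior count planned is edgeR's default and gave the main values. The share of each receptor and ligand per length was not run, since no transcript lengths were at hand.

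Over all genes, the counts lower and higher by the adjusted rule were 61 and 27. They were 8 and 9 with at least 10 counts in every library, 28 and 8 with DESeq2, and 28 and 11 with the replicate block. With no filter 44 were higher. Without each library in turn they ranged from 0 to 70 lower and from 0 to 39 higher, and both were 0 without control 2, where 138 and 137 passed the unadjusted rule. By that rule the main counts of 170 and 113 became 329 and 295 with no filter, 42 and 31 with at least 10 counts in every library, and 103 and 68 with DESeq2. Leaving out a library gave 138 to 181 lower and 96 to 146 higher. A lone library in a group was assumed to vary like the other group. The cause of these differences was not tested. The labels give numbers 1 and 2 in both groups, but nothing says that equal numbers share a day, and the correlation of the number 1 against 2 differences between groups was 0.12 over 2438 genes. Of 11 list medians with no filter, 5 moved by more than the spread between replicates: co-receptors, the Ras-ERK and Akt arm, immediate early genes, OPC markers and astrocyte markers.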
